A study of Mus musculus with 4 samples.

Results

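The Nanog-negative reprogrammed progenitor cells are a class of cells found in mouse embryonic neocortex after a pulse of the Yamanaka factors (Oct4, Sox2, Klf4 and Myc). They were chosen by their transcripts in droplet single-cell RNA sequencing. A cell was a member if at least 5 of the 8 genes Cytl1, Lbhd2, Anxa1, Cd109, Timp1, Tppp3, Krt8 and Lgals7 were detected with at least 1 unique molecular identifier (UMI, which marks 1 captured transcript), if Ebf1, Ebf2 and Ebf3 summed to at most 2 UMIs, and if Nanog had 0 UMIs. The rule took 311 of the 28672 cells that passed the quality filter of all 4 libraries (at least 1000 UMIs, at least 500 genes and at most 10% mitochondrial UMIs). These values chose the cells, so the 8 gate genes, the Ebf genes and Nanog are described below without a test.

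The i4F-Nes embryos had the genotype Nestin-Cre;i4F;ROSA-STOP-rtTA, in which Cre driven by Nestin in neural progenitors switches on the transactivator that drives the doxycycline-inducible 4-factor cassette. The CTR embryos were littermates with i4F;ROSA-STOP-rtTA and no Cre. Doxycycline was given to all dams in their drinking water (0.2 mg/ml), beginning at E10.5 and ending at E14.5, 4 days in all, so cassette, transactivator allele and drug were shared by both groups. The rostral neocortex was dissected at E15.5, after the drug had been withdrawn, and each group had 2 libraries. The labels do not say how many embryos entered a library or whether the libraries came from different litters. The p-values rest on the spread between these libraries pooled over all genes, and that spread may be technical. The labels name the cells cortical neurons. Yet 2124 cells of the 4 libraries passed a radial glia gate, beside 16382 that passed a neuron gate.

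Radial glia are the neural stem cells of the developing cortex and divide at the ventricle. They express Fabp7, Slc1a3 (a glutamate transporter), Hes5 and Vim, and give rise to intermediate progenitors and neurons. Forced expression of the 4 factors can move a differentiated cell toward pluripotency, and the homeobox factor Nanog is switched on late on that route. Cells on the way are known to lose genes of their tissue of origin and to gain epithelial genes such as Cdh1 and Epcam.

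The members came from both i4F-Nes libraries and from neither CTR library. In i4F-Nes replicate 1 they were 97 of 8125 cells, or 1.19% (exact binomial 95% interval 0.969 to 1.45), and in replicate 2 they were 214 of 6931 cells, or 3.09% (2.69 to 3.52). In CTR replicates 1 and 2 they were 0 of 6456 and 0 of 7160 cells, which allows shares of up to 0.0465% and 0.0419% (3 counts; these intervals and limits cover counting error only). No CTR cell had more than 3 of the gate genes. The mean share in i4F-Nes was 2.14 ± 1.34% (SD, n = 2).

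The i4F-Nes libraries had like shares of gated cells and differed in how many of these had no Nanog UMI. Cells that passed the gate and the Ebf limit, whatever their Nanog count, were 5.60% of cells in i4F-Nes replicate 1 and 5.66% in replicate 2. Of those 455 and 392 cells, 21.3% (17.6 to 25.4) and 54.6% (49.5 to 59.6) had 0 Nanog UMIs, 62 and 76 had 1 UMI, and 296 and 102 had at least 2 UMIs and are called Nanog-positive here. The share at 0 Nanog UMIs was lower in deeper cells. Between 20000 and 30000 UMIs it was 36.2% of 94 cells in replicate 1 and 63.6% of 154 cells in replicate 2, and at 40000 UMIs and over it was 9.85% of 203 and 29.5% of 88. Replicate 2 had the higher share in each of the 4 depth ranges examined.

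**Figure D1:**
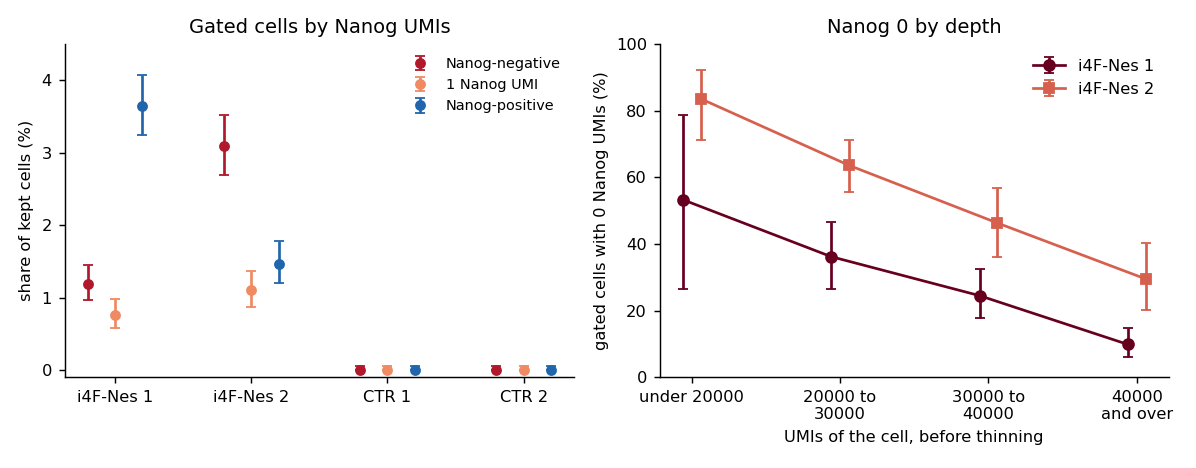
Left, share of kept cells (%) in each library for gated cells with 0 Nanog UMIs, 1 UMI and at least 2 UMIs, with exact binomial 95% intervals; the Nanog-negative cells were 1.19% and 3.09% of the i4F-Nes libraries and were not found in the CTR libraries. Right, share of gated cells (%) at 0 Nanog UMIs against the UMIs of the cell, for i4F-Nes replicates 1 and 2; both lines fall with depth and replicate 2 lies above replicate 1.

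Members yielded more UMIs than radial glia. Their median was 31469 and 25500 UMIs in i4F-Nes replicates 1 and 2, against 43184.5 and 37435.5 UMIs in Nanog-positive cells and 14927 and 14214 UMIs in radial glia of the same libraries. Each cell was therefore thinned at random to 10000 UMIs before any class was compared, which left out 1 and 3 members. A count of 0 does not show that a cell lacked Nanog transcripts. After thinning, 74.9% and 66.7% of the Nanog-positive cells still had a Nanog UMI. Doublets were not removed by the rule: by the highest Scrublet scores, 11 of 97 (11.3%) and 22 of 214 (10.3%) members were likely doublets, against 7.43% and 6.86% of Nanog-positive cells and 0 and 1.00% of radial glia. In all, 96 barcodes were kept in more than 1 library, 3 of them members.

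Most members passed the gate with room to spare. Lgals7, which encodes an epithelial galectin, was detected in 96.9% and 100% of members, and Cytl1, a secreted cytokine-like protein, in 62.9% and 56.1%. All 8 gate genes were detected in 31 and 39 members and exactly 5 in 21 and 48. Members with 5 had a Hopx level of 445 and 727 CPM (UMIs of the gene scaled to a common total), against 486 and 887 CPM in the 15 and 42 cells just outside that limit, with 4 gate genes and the same Nanog and Ebf limits. Crip1 had 45.0 and 167 CPM in members with 5 and 42.9 and 94.9 CPM in cells with 4, against 303 and 286 CPM in all members, and Tubb3 had 255 and 167 CPM in members with 5, against 543 and 305 CPM in cells with 4. Just outside the Ebf limit lay 4 and 4 cells with 3 Ebf UMIs. Tubb3, a neuronal tubulin, had 247 and 141 CPM in members, against 2920 and 944 CPM over the 74 and 25 cells with 0 Nanog UMIs above the Ebf limit.

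Hopx was the only gene among the cells' given markers that the rule had not used. Hopx encodes a homeodomain-only protein found in radial glia, in particular the outer radial glia of larger cortices, and lies at chr5:77086988-77115121 on the minus strand (GRCm38). At 10000 UMIs it was detected in 92.7% and 94.3% of members, against 95.9% and 97.1% of Nanog-positive cells, 54.0% and 44.3% of radial glia and 1.90% and 1.71% of neurons, taken as the level of free RNA. Without thinning the shares were 96.9% and 98.1% of members, 99.3% and 99% of Nanog-positive cells, 62.4% and 48.6% of radial glia, and 2.84% and 2.28% of neurons (median 14859 and 14114 UMIs). Its level was 606 and 800 CPM in members, against 99.3 and 85.5 CPM in radial glia of the same libraries and 147 and 154 CPM in CTR radial glia. Members thus carried the given marker in both libraries, at a mean of 7.56 times the radial glia level, and its share in Nanog-positive cells of the same gate was no lower.

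Members were compared with Nanog-positive cells of the same gate in the same libraries, which asks what else differs between gated cells that have and lack Nanog transcripts. UMIs of thinned cells were summed by class and library, and the 4 sums were fitted with library as a block, in edgeR's quasi-likelihood test with Benjamini-Hochberg adjustment over all 10696 genes tested. At an adjusted p of 0.05, 657 genes (6.14%) were higher and 607 genes (5.68%) lower in members. Of these, 654 and 604 had that sign in both libraries, but the calls were made on the same libraries, so this is no separate support. The fit had 1 residual degree of freedom and took its spread from all genes together. Its p-values are therefore likely too small for single genes. So are the standard errors (SE) printed after ± with its log2 fold changes, which do not measure a gene's own spread between libraries. Without the library block 133 genes were higher and 112 lower. DESeq2 called 103 higher and 93 lower, all of them also called by edgeR with the same sign. Of the edgeR calls, 287 were at least 2-fold higher and 224 at least 2-fold lower.

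Radial glia genes were higher in members than in Nanog-positive cells. Of 26 listed genes, all past the low-count filter, 17 rose and 1 fell, with a median log2 fold change of 0.79, against -0.0022 over all genes tested. Ptn, a secreted growth factor of radial glia, had 1140 and 1167 CPM in members, against 286 and 403 CPM in Nanog-positive cells and 2339 and 3135 CPM in radial glia (log2 fold change over Nanog-positive cells 1.78 ± 0.0763, SE). Ptn is not on the list and was chosen after its values were seen, as the gene with the smallest p of the comparison. Ptprz1, a phosphatase that binds Ptn, had 401 and 332 CPM in members, 114 and 91.2 CPM in Nanog-positive cells and 902 and 1150 CPM in radial glia (1.84 ± 0.112). With no library block 6 listed genes rose and 0 fell, and in DESeq2 9 rose and 0 fell. Ptn and Ptprz1 stood between the Nanog-positive and the radial glia level in both libraries.

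Aldoc, a glycolytic aldolase of glia at chr11:78322968-78327781, had 325 and 227 CPM in members, against 45.8 and 58.8 CPM in Nanog-positive cells and 695 and 401 CPM in radial glia (2.48 ± 0.137). Vim, the intermediate filament protein vimentin, had 2090 and 2100 CPM in members, against 780 and 1160 CPM in Nanog-positive cells and 2620 and 2530 CPM in radial glia (1.15 ± 0.0719). Fabp7, a fatty acid binding protein, had 439 and 260 CPM in members, against 86.8 and 102 CPM in Nanog-positive cells and 5400 and 5250 CPM in radial glia (1.93 ± 0.121). Vim in members was close to the radial glia level, whereas Fabp7 was far below it. The calls of Vim and Fabp7 were lost at 20000 UMIs and with a gate of 4 genes. That of Vim was also lost without likely doublets and with cells of both classes matched on raw UMIs. That of Fabp7 was also lost without cells above 3 Neurod2 and Neurod6 UMIs and with Nanog-positive cells counted from 1 UMI. That of Aldoc was lost without thinning.

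The other listed genes that rose were Hes5, Sox2, Mfge8, Nes, Ednrb, Dbi, Nr2e1, Lhx2, Id4, Dmrta2, Mt3, Gas1 and Tnc, with log2 fold changes between 0.38 for Sox2 and 2.42 for Ednrb, an endothelin receptor. Hes1, a Notch target, was the 1 that fell (-0.39 ± 0.0878), while Hes5, another Notch target, rose (0.89 ± 0.0924). Pax6, Slc1a3 and Sox9 did not pass the test (log2 fold changes 0.32, -0.19 and 0.13). In 19 of the 26 genes, members lay between Nanog-positive cells and radial glia in both libraries, also in 12 of the 16 that the radial glia gate had not used. The share of all genes in that order was not computed, so these counts have no background to be set against. Of 12 outer radial glia genes past the filter, Hopx, Ptprz1, Tnc, Etv1 and Acsbg1 rose and Itgb5 fell. Hopx had 606 and 800 CPM in members, against 475 and 700 CPM in Nanog-positive cells (0.27 ± 0.0759). It was not called without the library block, in DESeq2, at 5000 UMIs, with matched cells or with no low-count filter. Nor was it called with Nanog-positive cells counted from 1 UMI or among cells with at most 50 G2 and M phase UMIs. With cells of both classes matched on raw UMIs, 11 listed genes rose and 1 fell, and among cells low in mitotic transcripts, described below, 9 rose and 1 fell.

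**Figure D2:**
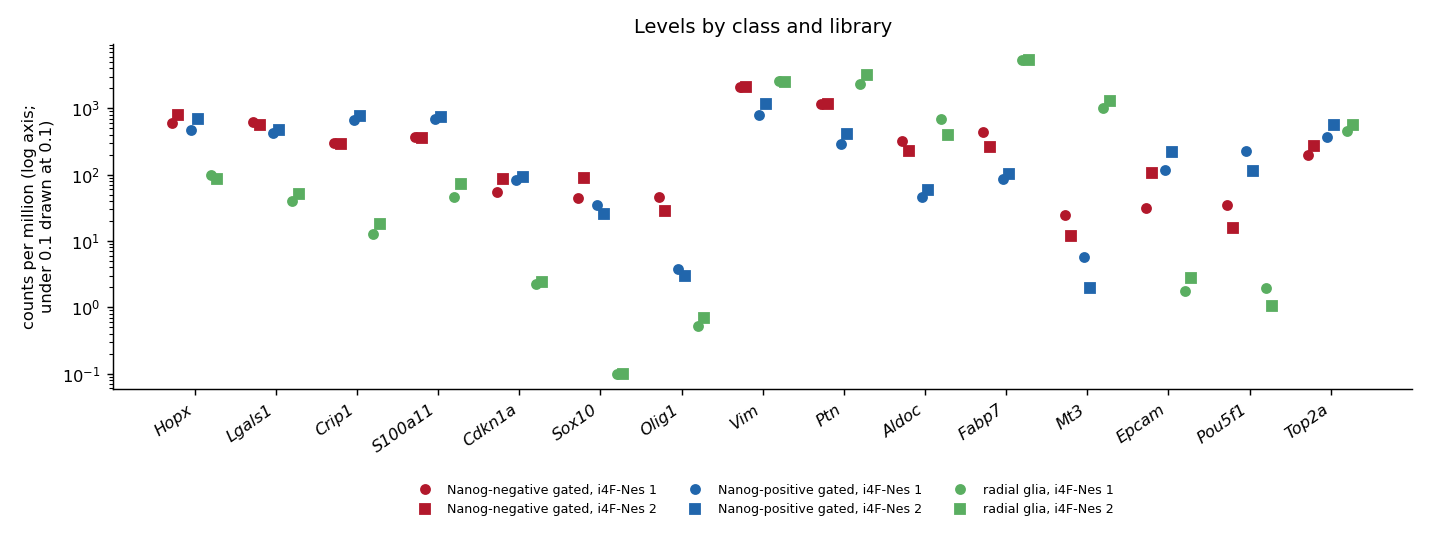
Level (CPM, log axis) of 15 genes in Nanog-negative cells, Nanog-positive cells and radial glia of each i4F-Nes library, 1 point per class and library. Vim, Ptn, Aldoc, Fabp7 and Mt3 in Nanog-negative cells lie between Nanog-positive cells and radial glia; Hopx, Lgals1, Crip1, S100a11 and Cdkn1a lie far above radial glia.

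Levels also differed along the number of Nanog UMIs, which the classes were made from, so they are described without a test. Raw depth rose along the groups of 0, 1, 2 to 3 and 4 and over. Its medians were 31490, 32375, 36780 and 46483 UMIs in replicate 1 and 25651, 28454.5, 37224 and 38047 UMIs in replicate 2. The part of depth in these levels was not tested. In replicate 1, Ptn had 1140 CPM in members, 728 CPM in gated cells with 1 Nanog UMI, 368 CPM at 2 to 3 and 248 CPM at 4 and over; in replicate 2 the levels were 1170, 851, 520 and 286 CPM. Aldoc had 325, 123, 86.3 and 26.5 CPM in the same 4 groups of replicate 1 and 227, 116, 90.2 and 27.5 CPM in replicate 2. Pou5f1 was highest at 4 Nanog UMIs and over, with 35.4, 52.5, 125 and 280 CPM in replicate 1 and 15.6, 44.7, 39.2 and 184 CPM in replicate 2. Hopx had 606, 643, 525 and 450 CPM and 800, 843, 622 and 778 CPM, with no such order in replicate 2. Cells with 1 Nanog UMI entered neither class of the test.

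**Figure D3:**
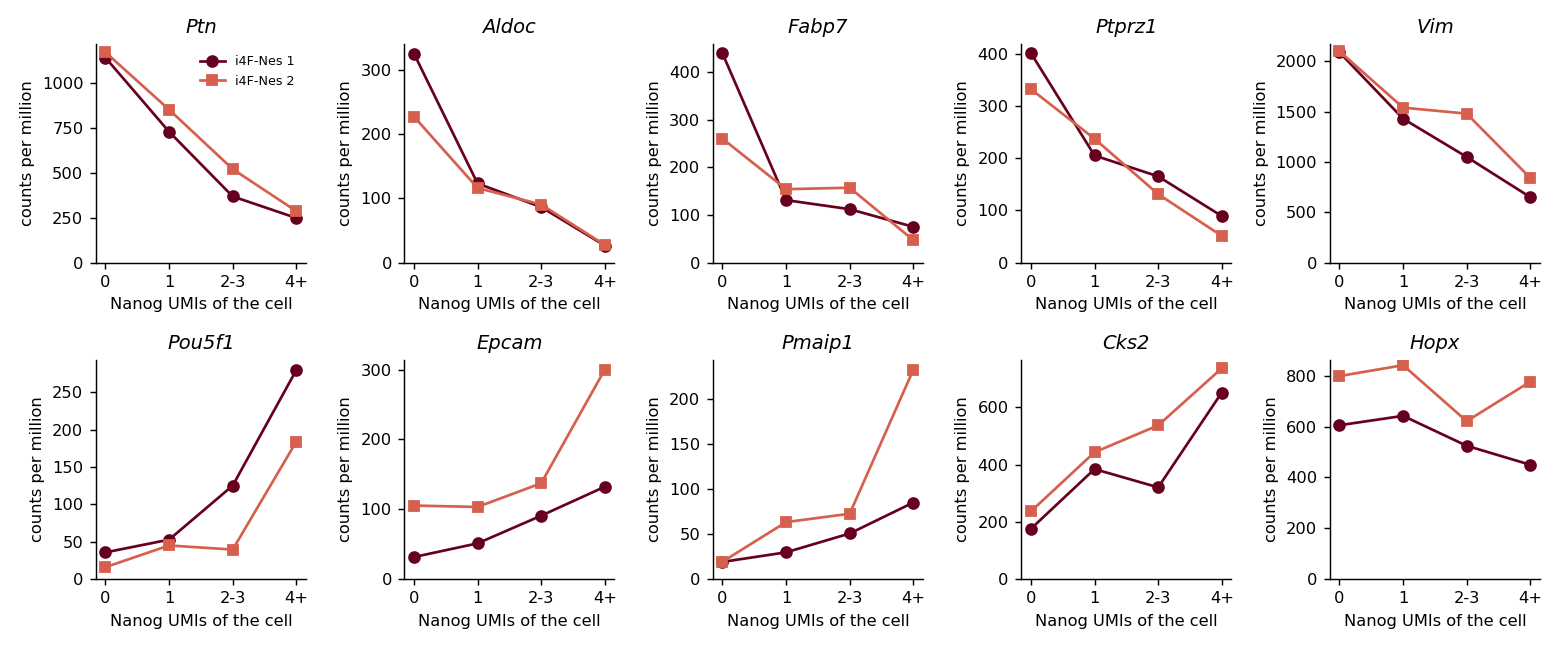
Level (CPM, from 0) of 10 genes in gated cells with 0, 1, 2 to 3 and 4 or more Nanog UMIs, 1 line per i4F-Nes library. The median raw UMIs of the cells rise along the axis in both libraries. The 5 genes of the upper row are highest at 0 Nanog UMIs, as Ptn at 1140 and 1170 CPM; Pou5f1, Epcam, Pmaip1 and Cks2 are highest at 4 and over, and Hopx shows no such order.

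Genes of the G2 and M phases of the cell cycle were lower in members, while few genes of DNA replication passed the test. Of 53 listed G2 and M phase genes, 0 rose and 51 fell in edgeR's test (median log2 fold change -1.0; at the unthinned depth 52 fell, in DESeq2 24 fell and 0 rose, and without the library block 25 fell and 0 rose). Cenpf, a kinetochore protein, had 84.4 and 163 CPM in members, against 285 and 448 CPM in Nanog-positive cells and 490 and 441 CPM in radial glia (-1.57 ± 0.11). Cks2, a subunit of cyclin-dependent kinases, had 175 and 236 CPM in members, against 545 and 637 CPM in Nanog-positive cells and 487 and 485 CPM in radial glia (-1.52 ± 0.0912). Members stood below both other classes for both genes in both libraries. The difference was smaller among cells of like raw UMI count. With 90 and 84 cells of each class matched on it within the libraries, 15 of 52 genes fell, 0 rose and the median was -0.31; the matched members of replicate 2 were deeper than all of its members, with a median of 34783 against 25651 UMIs.

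Of 43 listed S phase genes, 0 rose and 2 fell, Gmnn (-0.44 ± 0.125) and Usp1 (-0.47 ± 0.14), a share of fallen genes near that of all genes. Pcna, the DNA polymerase clamp, had 232 and 163 CPM in members, against 204 and 174 CPM in Nanog-positive cells, and did not pass the test. Among 10 cyclins and inhibitors past the filter, Ccnd1 and Cdkn1c rose and Cdkn2d fell; without the library block and in DESeq2, 0 rose and 0 fell. Ccnd1, cyclin D1, differed (278 and 243 CPM against 268 and 123 CPM; 0.45 ± 0.112), more in replicate 2 than in replicate 1. Cdkn1c, an inhibitor of cyclin-dependent kinases, had 34.4 and 42.6 CPM in members, against 18.3 and 20.6 CPM in Nanog-positive cells (0.97 ± 0.259).

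Cell by cell, the G2 and M phase list summed to a median of 30.5 and 25 of 10000 UMIs in members, against 91 and 108 in Nanog-positive cells and 75 and 91 in radial glia. In all, 68.8% (58.5 to 77.8) of 96 and 68.2% of 211 members had at most 50 such UMIs, against 34.9% and 30.4% of Nanog-positive cells. The 90th percentile was 138 and 176 UMIs in members, against 220 and 261 in Nanog-positive cells. The S phase list had medians of 36 and 20 UMIs in members, against 36 and 33 in Nanog-positive cells and 34 and 31 in radial glia. When both classes were restricted to cells with at most 50 UMIs of the G2 and M phase list, 130 genes were higher and 71 lower in members, Aldoc and Pou5f1 among them.

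**Figure D4:**
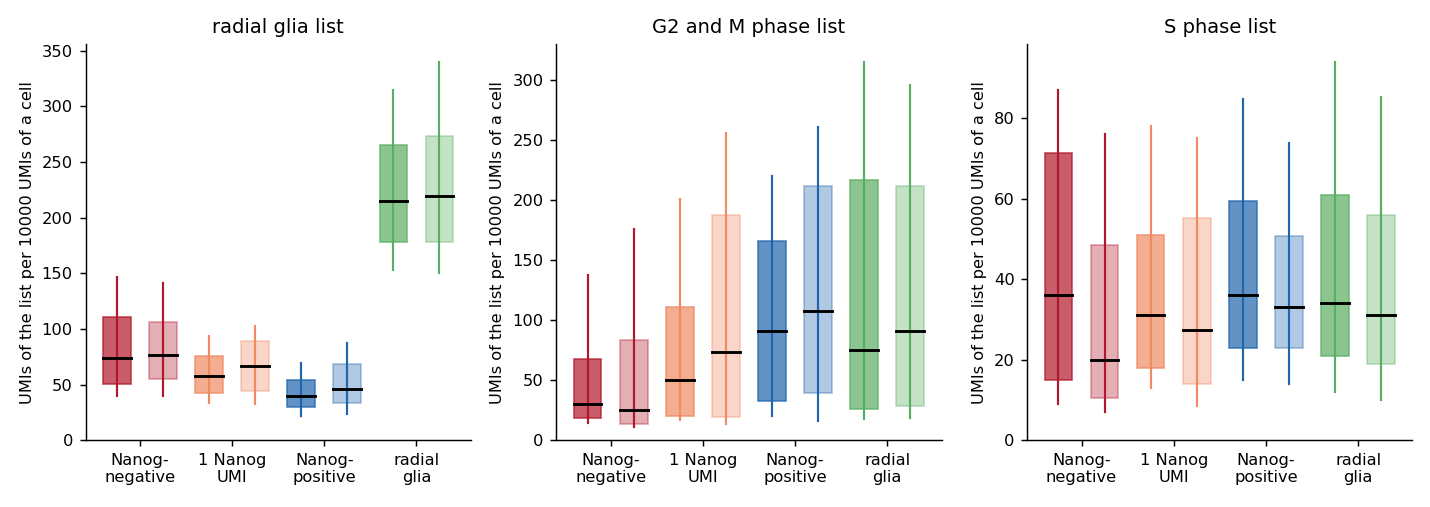
UMIs of 3 gene lists per 10000 UMIs of a cell in Nanog-negative cells, cells with 1 Nanog UMI, Nanog-positive cells and radial glia; boxes span the middle 50% of cells, black lines are medians and whiskers run over the middle 80%, with i4F-Nes replicate 1 (darker) left of replicate 2. Nanog-negative cells lie between Nanog-positive cells and radial glia on the radial glia list and are lowest on the G2 and M phase list.

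The promoters of 3 genes that fell are printed because they carry the sequence features that late cell cycle genes are known for, the CHR element (TTTGAA) and CCAAT boxes. Of the 53 listed genes, 47 matched a RefSeq promoter (GRCm38.p6, 250 bases before the start and 50 after it), and 32 of these (68.1%) held TTTGAA on either strand, against 4893 of all 27025 promoters (18.1%). CCAAT was in 76.6% of them, against 37.9% of all promoters, and both motifs in 55.3%, against 7.12%. Of 32 matched S phase promoters, 15.6% held TTTGAA and 71.9% held CCAAT. A match describes letters in this window only. Among called genes with both motifs, the 3 with the lowest log2 fold change were Cenpf (chr1:189688037-189688336), Hmmr (chr11:40733388-40733687) and Cdc20 (chr4:118437294-118437593), all on the minus strand. Their sequences read 5′ to 3′ along the gene, with the CHR element and the CCAAT boxes of either strand in capitals.
Cenpf: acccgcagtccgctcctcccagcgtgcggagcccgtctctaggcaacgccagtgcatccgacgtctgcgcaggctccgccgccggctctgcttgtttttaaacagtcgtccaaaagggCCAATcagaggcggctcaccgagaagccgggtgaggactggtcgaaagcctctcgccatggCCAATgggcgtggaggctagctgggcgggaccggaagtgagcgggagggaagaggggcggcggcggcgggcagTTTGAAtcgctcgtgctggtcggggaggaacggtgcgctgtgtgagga
Hmmr: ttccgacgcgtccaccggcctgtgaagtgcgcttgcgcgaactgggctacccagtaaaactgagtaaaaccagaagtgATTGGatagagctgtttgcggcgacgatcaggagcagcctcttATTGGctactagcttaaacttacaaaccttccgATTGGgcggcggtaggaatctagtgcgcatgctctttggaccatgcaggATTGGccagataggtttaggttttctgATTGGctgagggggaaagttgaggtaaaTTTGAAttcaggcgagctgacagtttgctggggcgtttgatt
Cdc20: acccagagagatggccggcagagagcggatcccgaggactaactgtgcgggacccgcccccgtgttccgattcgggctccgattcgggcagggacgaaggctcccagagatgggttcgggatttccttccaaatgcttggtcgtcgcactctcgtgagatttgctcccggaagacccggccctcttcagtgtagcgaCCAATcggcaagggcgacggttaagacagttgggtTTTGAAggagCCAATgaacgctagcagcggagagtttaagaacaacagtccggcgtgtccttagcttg
Hmmr, a receptor for hyaluronan that also binds the mitotic spindle, had 37.5 and 61.6 CPM in members, against 110 and 146 CPM in Nanog-positive cells (-1.36 ± 0.163). Cdc20, an activator of the anaphase-promoting complex, had 109 and 79.6 CPM, against 241 and 214 CPM (-1.28 ± 0.127).

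Pluripotency and epithelial genes were lower in members. Of 28 listed pluripotency genes, 7 passed the low-count filter. Of these, Pou5f1, L1td1, Epcam, Gdf3 and Tdh fell and 0 rose. Without the library block 4 fell, Epcam not among them, and in DESeq2 3 fell, Gdf3 and Tdh not among them. Among cells with at most 50 G2 and M phase UMIs, 3 fell. Epcam is also on the epithelial list and is counted in both. Pou5f1, which encodes Oct4 and lies at chr17:35506018-35510772, had 35.4 and 15.6 CPM in members, against 231 and 112 CPM in Nanog-positive cells and 1.93 and 1.04 CPM in radial glia (-2.76 ± 0.18). L1td1, an RNA-binding protein of pluripotent cells, had 9.38 and 9.48 CPM in members, against 70.8 and 55.9 CPM (-2.69 ± 0.263). Gdf3, a nodal-related ligand, had 0 and 0.948 CPM in members, against 17.6 and 23.5 CPM. Nanog split these cells in the first place, so genes that go with it are not independent of how the classes were made. Gene counts do not tell transcripts of the cassette from those of the genes themselves.

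Pou5f1 was detected more often in members than in neurons of either group. Neurons of the i4F-Nes libraries may carry the active cassette, so their Pou5f1 need not be free RNA. At 10000 UMIs it was detected in 9.38% (4.38 to 17.1) of 96 and 8.53% (5.13 to 13.1) of 211 members, against 50.2% and 42.2% of Nanog-positive cells and 2.58% and 1.79% of neurons. In CTR neurons, which have no Cre, the shares at 10000 UMIs were 1.78% and 1.52%. Without thinning the shares were 22.7% and 16.4% of members, 69.6% and 61.8% of Nanog-positive cells, and 4.01% and 2.48% of i4F-Nes neurons. Of the other cassette genes, Sox2 was higher in members, at 197 and 197 CPM, against 139 and 167 CPM in Nanog-positive cells and 468 and 394 CPM in radial glia (0.38 ± 0.119). The call was lost without the library block, in DESeq2, without thinning, at 5000 UMIs and with cells matched on raw UMIs. It was also lost with at least 6 gate genes, without the low-count filter and among cells with at most 50 G2 and M phase UMIs. Klf4 and Myc were under 20 CPM in both classes and did not pass the test.

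Of 24 epithelial genes outside the rule, 12 passed the filter, and 9 of them fell while 0 rose; without the library block 1 fell, and in DESeq2 3 fell. Epcam, an adhesion molecule, had 31.2 and 105 CPM in members, against 119 and 219 CPM in Nanog-positive cells and 1.76 and 2.77 CPM in radial glia (-1.32 ± 0.146). Cdh1, epithelial cadherin, had 3.12 and 3.79 CPM in members, against 18.6 and 13.7 CPM in Nanog-positive cells. Cldn3, Spint1, Spint2, Dsp, Perp, Grhl2 and St14 were the others. Of 8 mesenchymal genes past the filter, Zeb1, Cdh2 and Zeb2 rose and Tpm1 fell, with 4 log2 fold changes above 0 and 4 below it. Zeb1, a repressor of epithelial genes, had 251 and 189 CPM in members, against 52.9 and 72.5 CPM in Nanog-positive cells and 280 and 208 CPM in radial glia (1.88 ± 0.139), and Cdh2, neural cadherin, had 225 and 151 CPM, against 85.8 and 70.6 CPM (1.28 ± 0.137).

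Transcription factors of the oligodendrocyte lineage were detected in a minority of members. Olig1, at chr16:91269772-91271933, had 45.8 and 28.0 CPM in members, against 3.73 and 2.94 CPM in Nanog-positive cells and 0.527 and 0.692 CPM in radial glia (3.51 ± 0.373). It was detected in 22.9% (15.0 to 32.6) and 14.2% (9.80 to 19.7) of members at 10000 UMIs, against 3.39% and 2.94% of Nanog-positive cells, 0.351% and 0.346% of radial glia, and 0.0482% and 0 of 2286 neurons (which allows up to 0.131%); unthinned, in 33.0% and 26.2% of members and 12.8% and 11.8% of Nanog-positive cells. Olig2 had 18.8 and 19.4 CPM in members, against 1.02 and 0 CPM in Nanog-positive cells. Sox10 had 44.8 and 88.2 CPM in members, against 34.9 and 25.5 CPM in Nanog-positive cells (1.02 ± 0.195), and 0 and 0 CPM in radial glia. Its call was lost under several alternatives, among them no library block and DESeq2. The 3 remaining genes of the list were at or near 0 in members: Pdgfra had 0 and 0.948 CPM, Gpr17 had 0 and 0 CPM, and Cspg4 had 4.17 and 3.79 CPM.

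Neuronal genes gave different answers gene by gene and cell by cell. Per cell, the neuronal list had medians of 18.5 and 12 of 10000 UMIs in members, against 22 and 13 in Nanog-positive cells, and the summed list had 2510 and 1650 CPM in members, against 2440 and 1390 CPM. Of 21 neuronal genes 19 passed the filter, of which 11 rose and 1 fell; without the library block 3 rose and 0 fell. Dcx, a microtubule protein of migrating neurons, had 177 and 133 CPM in members, against 83.4 and 38.2 CPM in Nanog-positive cells and 12.3 and 19 CPM in radial glia (1.33 ± 0.149). Stmn2, another microtubule protein of growing axons, was the 1 that fell, at 600 and 324 CPM against 1040 and 540 CPM (-0.77 ± 0.0779). In 14 of 97 and 19 of 214 members Neurod2 and Neurod6 summed to more than 3 UMIs, against 27 of 296 and 6 of 102 Nanog-positive cells. Without such cells, 3 neuronal genes rose, 1 fell and the list's median log2 fold change was -0.096, against 0.85 with them, and without likely doublets 6 rose and 2 fell; the part of neuronal RNA in this result was not tested further. Of 13 listed intermediate progenitor genes 11 passed the filter, and 6 rose while Btg2 fell; without the library block 1 rose, and in DESeq2 0 rose and 1 fell. Among those that rose were Gadd45g (318 and 310 CPM against 132 and 228 CPM; 0.86 ± 0.107) and Neurog2 (13.5 and 15.2 CPM against 2.03 and 7.84 CPM; 1.75 ± 0.486). Eomes, their defining factor, had 7.29 and 14.7 CPM in members, against 4.75 and 9.80 CPM, and did not pass the test.

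Emx2, a cortical patterning factor, had 57.3 and 56.9 CPM in members, against 74.9 and 80.4 CPM in Nanog-positive cells, and did not pass the test (-0.44 ± 0.169).

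Several stress, signalling and surface genes were lower in members. Pmaip1, which encodes the death factor Noxa and is a target of p53, had 18.8 and 19 CPM in members, against 73.9 and 153 CPM in Nanog-positive cells (-2.67 ± 0.202). Of 20 p53 targets past the filter, 4 fell (Pmaip1, Perp, Btg2 and Ckap2, which is also on the G2 and M phase list) and 1 rose, Trp53inp1; without the library block 2 fell and 0 rose. Cdkn1a, the p53 target p21, had 54.2 and 85.8 CPM in members, against 84.1 and 91.2 CPM in Nanog-positive cells, and did not pass the test. Ccn1, a matrix protein induced by serum and stretch, had 76.0 and 59.7 CPM in members, against 355 and 204 CPM (-1.99 ± 0.129).

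Of 16 S100, annexin and galectin genes past the filter and outside the rule, S100a6, S100a10, S100a11, Anxa2, Anxa7 and Lgals9 fell, while Lgals1 and Lgals3 rose; without the library block 2 fell and 1 rose, and in DESeq2 3 fell and 0 rose. S100a11, a calcium-binding protein, had 375 and 363 CPM in members, against 681 and 726 CPM in Nanog-positive cells and 46.6 and 72.7 CPM in radial glia (-0.93 ± 0.0811). Lgals1, which encodes galectin-1, had 619 and 565 CPM in members, against 417 and 466 CPM in Nanog-positive cells and 40.2 and 51.2 CPM in radial glia (0.43 ± 0.0808). Crip1, a LIM protein outside the lists that was chosen after its values were seen, had 303 and 286 CPM in members, against 675 and 763 CPM in Nanog-positive cells and 12.7 and 18.3 CPM in radial glia (-1.29 ± 0.0837). Members stood far above radial glia for all 3 genes, above Nanog-positive cells for Lgals1 and below them for the other two.

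Among 15 genes of the TGF-beta, nodal and BMP pathways past the filter, 6 fell and 1 rose; Id3, a target of BMP signals, had 38.5 and 74.9 CPM in members, against 81.0 and 159 CPM (-1.08 ± 0.162), and Lefty1, a nodal inhibitor, had 10.4 and 9 CPM against 30.2 and 18.6 CPM. Ifitm1, Ifitm2 and Ifitm3 fell among 8 interferon and MHC class I genes. Imprinted genes went both ways: Nnat (334 and 272 CPM against 110 and 111 CPM; 1.47 ± 0.115), Mest, Ndn and Cdkn1c rose, whereas Dlk1, Peg10 and Peg3 fell. Fgfr3, Etv1, Spry1 and Phlda1 rose among 15 genes of FGF signalling and its feedback. In DESeq2, at 5000 UMIs and without the library block, 0 of these FGF genes rose. The same held among cells with at most 50 G2 and M phase UMIs. Without the block 1 TGF-beta pathway gene fell, 0 interferon genes fell, and 1 imprinted gene rose and 1 fell.

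**Figure D5:**
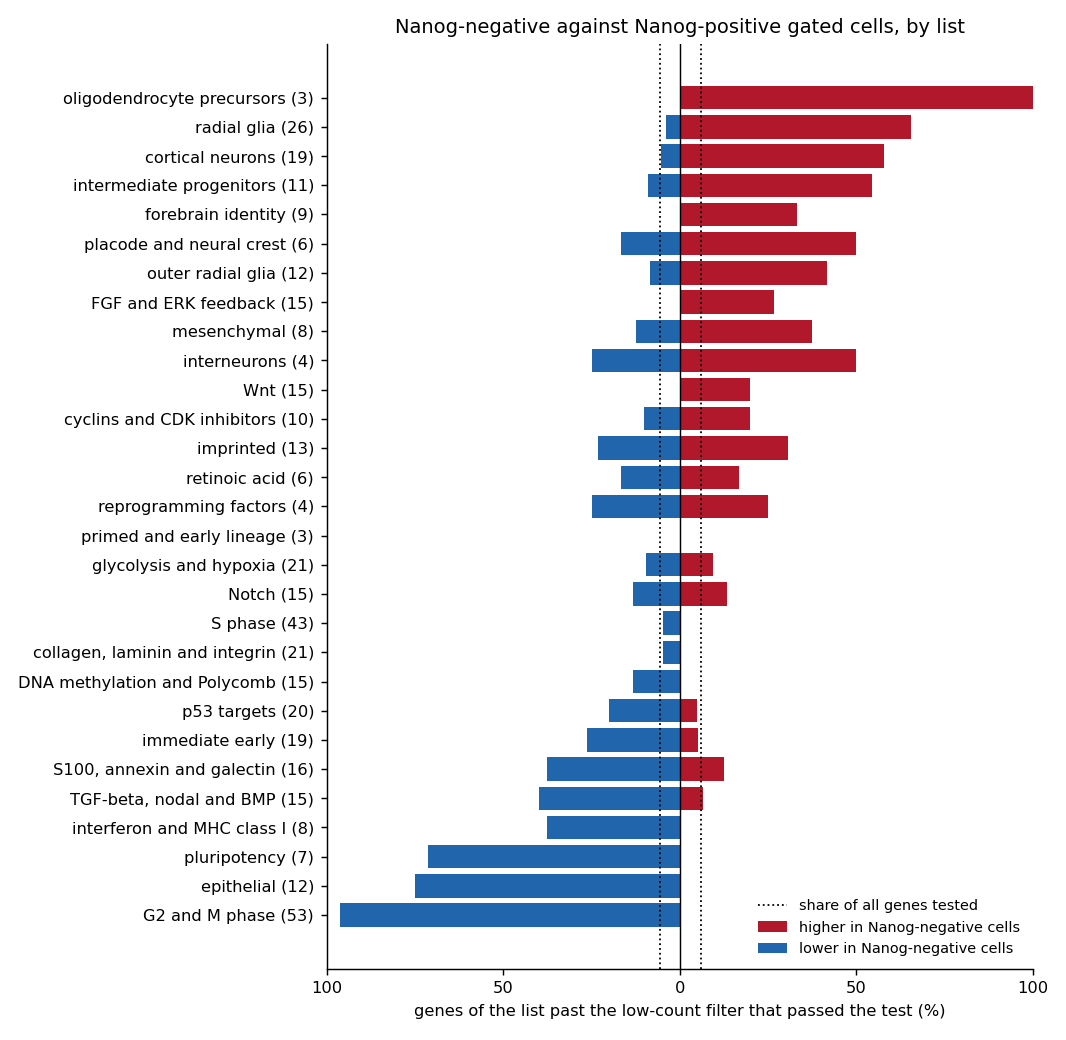
Share (%) of each list's genes past the low-count filter that were higher (right, red) or lower (left, blue) in Nanog-negative than in Nanog-positive cells in edgeR's test; the number of such genes stands behind each list name and lists with under 3 are left out. Dotted lines mark the shares over all genes tested, 6.14% higher and 5.68% lower. The G2 and M phase list (51 of 53 lower) and the oligodendrocyte precursor list (3 of 3 higher) lie at opposite ends. The radial glia list had 17 of 26 higher.

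Among the genes named for their size, those higher in members were Olig1, Dscaml1, Aldoc, Ncan, Ednrb, Mmd2, Limch1, Nrg1, Rhcg, Sorcs1, Syt6 and AW047730, with log2 fold changes from 1.99 to 3.51. Nrg1, a ligand of ErbB receptors, had 655 and 451 CPM in members, against 131 and 129 CPM in Nanog-positive cells and 3360 and 2960 CPM in radial glia (2.11 ± 0.0991). Rhcg, an ammonium transporter, had 99 and 51.2 CPM in members, against 22.0 and 13.7 CPM in Nanog-positive cells and 17.2 and 14.9 CPM in radial glia (2.09 ± 0.217). Of these 12, Olig1, Rhcg and Syt6 were higher in members than in radial glia of both libraries, AW047730 was nearly level with them, and the other 8 were lower. The 12 lower in members were Sprr2b, Pou5f1, L1td1, Pmaip1, Penk, Tfap2a, Crym, 1700019D03Rik, Ccn1, Nek2, Enpp3 and Slc39a8. Tfap2a, a factor of surface ectoderm and neural crest, had 7.29 and 12.8 CPM in members, against 51.2 and 55.9 CPM (-2.34 ± 0.271). Sprr2b, a protein of cornified epithelium, had 4.17 and 0 CPM in members, against 30.2 and 105 CPM in Nanog-positive cells.

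Members were next set beside radial glia of the same libraries. Both classes were chosen by transcripts, so these values are described without a test; a gene is counted if it differed at least 2-fold in both libraries with at least 20 CPM in the higher class. Of 7458 genes at that level, 423 (5.67%) were higher and 499 (6.69%) lower in members, and the median over all of them was -0.13 on the log2 scale. With radial glia of the CTR libraries in their place, 450 were higher and 399 lower.

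The highest ratios belonged to genes near 0 in radial glia. Cldn3, a tight junction protein, had 108 and 156 CPM in members, against 0.703 and 1.73 CPM in radial glia. Tesc, a calcium-binding protein, had 132 and 181 CPM in members, against 1.41 and 3.11 CPM. The heat shock protein gene Hspb1 had 55.2 and 98.1 CPM, against 0.527 and 0.346 CPM. Lbp, Capn6, Cnmd, Sox10, Ceacam1, Prelp, Lrmp, Junb and Cavin1 complete the 12. Every gene of the S100, annexin and galectin list that was counted, except Anxa5, was higher in members (9 against 1), as S100a16 with 234 and 167 CPM against 10.0 and 9 CPM. Cdkn1a was detected in 30.2% and 40.3% of members at 10000 UMIs, against 1.58% and 2.42% of radial glia and 2.51% and 3.11% of neurons; unthinned, in 56.7% and 61.2% of members, 2.31% and 3.51% of radial glia, and 3.73% and 4.22% of neurons.

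Immediate early genes and feedback genes of FGF signals stood above radial glia as well. Of 13 immediate early genes at 20 CPM, 8 were counted as higher and 0 as lower; Egr1 had 182 and 242 CPM in members, against 10.0 and 15.2 CPM, and Fos had 535 and 621 CPM, against 78.4 and 45.3 CPM. Etv5, Spry1, Spry4, Dusp6 and Phlda1 were higher among 12 genes of FGF signalling, and 0 were lower; Etv5, a factor induced by ERK, had 160 and 108 CPM, against 49.4 and 37.4 CPM. Ccnd1 had 278 and 243 CPM in members, against 53.2 and 50.9 CPM in radial glia. Against Nanog-positive cells, by contrast, Ier2, Atf3, Nr4a1, Ccn1 and Ccn2 fell and Btg1 rose among 19 immediate early genes past the filter, with a median log2 fold change of -0.38; without the library block 2 fell, and in DESeq2 1 fell. Nr4a1, a nuclear receptor, had 169 and 169 CPM in members, against 305 and 213 CPM in Nanog-positive cells (-0.59 ± 0.11). Egr1 and Fos did not pass that test; Nanog-positive cells had 248 and 251 CPM of Egr1 and 614 and 512 CPM of Fos.

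The lowest ratios belonged to genes high in radial glia, some of them known from astrocytes (Mt3, Clu and Aldh1l1). Mt3, a metallothionein of glia, had 25 and 11.8 CPM in members, against 1024 and 1291 CPM in radial glia. Fstl5 had 7.29 and 3.32 CPM, against 276 and 229 CPM, and Igfbp5, a binding protein of insulin-like growth factors, 4.17 and 3.79 CPM, against 133 and 150 CPM. Gabrb1, Clu, Vcam1, Lipg, Pcdh15, Ptx3, Nog, Ccdc80 and Aldh1l1 complete the 12. Of the 16 radial glia genes outside the radial glia gate, 7 were lower (Ddah1, Dbi, Phgdh, Nr2e1, Id4, Mt3 and Tnc) and 0 higher. Emx1 and Nr2f1, which pattern the cortex, were lower, at 27.1 and 15.2 CPM against 71.9 and 65.0 CPM and at 40.6 and 54.0 CPM against 200 and 222 CPM. Of 52 G2 and M phase genes at 20 CPM, 19 were lower and 0 higher, and of 39 S phase genes 0 were counted in either direction.

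Markers of vascular and immune cells were low in members. Endothelial genes summed to 1.04 and 1.42 CPM with 6 of 7 at 0 in each library, mural genes to 8.33 and 5.21 CPM with 4 and 5 of 7 at 0, and microglial genes to 4.17 and 14.7 CPM with 6 and 2 of 9 at 0. Cldn5 and Csf1r were at 0. Erythroid genes summed to 47.9 and 10.9 CPM in members, against 43.7 and 4330 CPM in Nanog-positive cells, so that the Nanog-positive sum of replicate 2 stands apart; the part of erythroid RNA in the results was not tested. Interneuron genes summed to 269 and 204 CPM in members, against 215 and 143 CPM in Nanog-positive cells, 72.1 and 122 CPM in radial glia and 86.9 and 169 CPM in neurons, with Gad1 at 0 in members.

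The members varied among themselves. The radial glia list summed to a median of 74 of 10000 UMIs in replicate 1, with 10th and 90th percentiles of 40 and 147, and to a median of 77 in replicate 2, with percentiles of 40 and 141; Nanog-positive cells had medians of 40 and 46.5, and radial glia 215 and 219. Epithelial genes without Krt8 summed to medians of 3 and 4 UMIs in members, against 8 and 8 in Nanog-positive cells and 0 and 0 in radial glia. Across members, the sums of the radial glia and epithelial lists had a Spearman correlation of -0.38 over 96 cells and -0.23 over 211 cells; the cells of a library share its preparation, and both sums are shares of the same 10000 UMIs. In Nanog-positive cells these were -0.25 over 295 cells and -0.084 over 102. The radial glia and neuronal lists of members had correlations of -0.50 and -0.098. The sums of the radial glia and G2 and M phase lists had correlations of 0.05 and 0.028, weak values in sparse counts. Between libraries, Fabp7 was higher in members of replicate 1 (439 against 260 CPM; among members with 5 gate genes 960 against 229 CPM) and Epcam (31.2 against 105 CPM) and Peg10 (91.7 against 234 CPM) in members of replicate 2.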

How the data were processed

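Gene counts of 10x 3′ libraries were deposited by the authors as raw UMI counts per barcode. They were made with cellranger 7.0.1 per the file headers and on mm10 per the submitters' processing notes, with no further settings stated. The 4 libraries held 94052724 to 153706503 UMIs in 7942 to 9646 barcodes, and kept cells had a median of 11697 to 15629 UMIs. Cells, members and radial glia (at least 6 of 10 markers) were selected with Python 3.11.15 and scanpy 1.11.5. Doublets were scored with Scrublet and kept, as the rule names none, and left out as an alternative. Intervals are exact binomial intervals and cover counting error only.

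Cells were thinned to 10000 UMIs (seed 1), summed by class and library, scaled with TMM, filtered with filterByExpr and tested with edgeR 4.0.16 (R 4.3.3) as library plus class; DESeq2 1.42.0 was an alternative. Both classes of a library come from the same sample, so library was a block; deviations of the same library correlated with r = 0.34 over 10696 genes. The test was first run on simulated counts with a shared dispersion for all genes. That run cannot show how p-values of single genes behave here. Named genes are the 12 with the largest log2 fold changes in each direction past the threshold (mean of at least 20 CPM, the same sign in both libraries), the 12 largest ratios to radial glia in each direction, listed genes, and those said to be chosen later. The members and the lists were chosen with earlier results of these data known. Promoters are RefSeq's, of GRCm38.p6.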

Additional observations from a re-analysis of the deposited data

How the results depend on the processing

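Directions held for every gene named for its size wherever an alternative gave it a value, although counts moved. Against Nanog-positive cells (657 higher, 607 lower), 294 and 259 were called at 5000 UMIs, 998 and 941 without thinning, 133 and 112 with no replicate block in place of the pairing by library, and 103 and 93 by DESeq2. Matching on raw UMIs gave 510 higher and 315 lower. Restrictions were chosen after seeing the data: cells with at most 3 Neurod2 and Neurod6 UMIs gave 412 higher and 419 lower, and cells with at most 50 G2 and M phase UMIs gave 130 higher and 71 lower. The cause was not tested; the restricted and thinned sums hold fewer UMIs. Of the 245 calls without the block, 245 were also calls with it. Of the values of named genes in this comparison, 421 kept their side of the threshold and 10 lost it, among them Sprr2b, Syt6, Penk, Enpp3 and Aldoc under 1 alternative or more. Sox10 was not called at 5000 or 20000 UMIs, without thinning, with 4 gate genes, among cells with at most 50 G2 and M phase UMIs, without the block, or by DESeq2. With 1 library left out this comparison has no residual degrees of freedom and gave no count. Against radial glia (423 higher, 499 lower), a minimum of 5 CPM gave 915 higher and 731 lower, and single libraries gave 586 to 663 higher and 713 to 754 lower, since 1 library then suffices. The mean share of 2.14% was 3.09% without i4F-Nes replicate 1 and 1.19% without replicate 2. Depth limits the Nanog call of single cells, and with 2 libraries in a group an exact test of the share cannot reach the threshold.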
